A study of Mus musculus with 4 samples.

Results

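The phagocyte NADPH oxidase is an enzyme that moves electrons across a membrane to oxygen and so makes superoxide, the starting point of other reactive oxygen species. Its catalytic core is gp91phox (NOX2, encoded by Cybb), held in the membrane by p22phox (Cyba). The enzyme is silent until the cytosolic subunits, among them the organizer p47phox (Ncf1) and p40phox (Ncf4), join it together with a Rac GTPase, of which Rac2 (Rac2) is the form of blood cells. NOX4 (Nox4) is a related catalytic subunit that also uses p22phox but works without the cytosolic subunits. HVCN1 (Hvcn1) is the voltage-gated proton channel that carries away the charge left behind by the oxidase. In the brain the phagocyte enzyme is known from microglia and macrophages, NOX4 from vessels and other cells, and angiotensin II is a known activator of the oxidase. The 7 genes Cybb, Cyba, Ncf1, Ncf4, Rac2, Nox4 and Hvcn1 were chosen by name from 33981 genes in the tables, and all 7 were found.

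The tissue sequenced was a slice of forebrain, cut in the coronal plane and including prefrontal cortex, from male C57BL/6J mice aged 3-5 months. NT + Sham and NT + Stroke mice were infused with saline under the skin, whereas the infusion of HT + Sham and HT + Stroke mice held angiotensin II (0.28 mg/kg/day). Photothrombotic stroke (Stroke), in which light acting on an injected dye clots the vessels of a patch of cortex, or the same surgery without the light (Sham), followed on day 7, and brains were taken on day 28 after the blood had been washed out. Each group had 6 libraries, numbered from 1 to 6 and treated here as 1 mouse each, although the sample labels list 1 sample per group. Nothing in the labels says that the libraries came from separate mice, so P-values measure the spread between these libraries.

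Total counts per library were 15922919 to 24865998. Levels are CPM (counts relative to library size) with the sizes scaled by TMM, folds come from edgeR's quasi-likelihood test, and adjusted P-values are Benjamini-Hochberg values over all genes tested in a comparison, with a threshold of 0.05. Markers of cortical neurons summed to between 5337 and 7914 CPM in the 24 libraries, so neurons were present, at levels that differed with surgery (given with the other markers). The list includes genes such as Snap25 and Gad1 that do not set cortex apart from other regions. Striatal markers ranged from 354 to 2766 CPM and olfactory bulb markers from 37.5 to 608 CPM, so the sections did not all hold the same regions, and the part of this in the results below was not tested.

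In 3 libraries, genes of injured tissue outside the oxidase went against the surgery label. Cd5l, a macrophage gene, was at 0.00 to 0.37 CPM in HT + Sham mice 1 to 5 but at 13.8 CPM in the library labelled HT + Sham mouse 6. In HT + Stroke it was at 3.82 to 87.2 CPM in mice 2 to 5 but at 0.40 CPM in mouse 1 and 0.57 CPM in mouse 6. Lgals3, a galectin of activated phagocytes, gave 16.1 CPM in HT + Sham mouse 6, 2.79 CPM in HT + Stroke mouse 1 and 3.12 CPM in HT + Stroke mouse 6, against at most 1.15 CPM in the other 5 HT + Sham mice and at least 13.1 CPM in the other 4 HT + Stroke mice. For HT + Stroke mice 1 and 6 a swapped label and a section that missed the injured patch cannot be told apart. HT + Sham mouse 6 has no such patch by its label, and the cause of its values was not tested. Each library was kept in the group that its column name gives. The members' results in HT mice are also given without the 3 libraries, as are the marker lists and the partner genes called after stroke in HT mice. Leaving them out moves HT + Sham and HT + Stroke apart by construction, because they were singled out after their values were seen.

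All 7 genes are protein coding, with positions as in GENCODE M21 on GRCm38. Cybb lies at chrX:9435252-9487771 on the minus strand, Cyba at chr8:122424776-122432930 on the minus strand and Ncf1 at chr5:134220053-134229625 on the minus strand. Ncf4 lies at chr15:78244801-78262580 on the plus strand, Rac2 at chr15:78559167-78572783 on the minus strand, Nox4 at chr7:87246096-87398710 on the plus strand and Hvcn1 at chr5:122206804-122242297 on the plus strand. Ncf1 overlaps Gtf2ird2, and Hvcn1 overlaps Tctn1, each on the opposite strand. Whether the counting used strand is not given in the sources used here, so reads of the overlapping stretches cannot be told apart.

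The levels per length, as FPKM (counts divided by gene length and by library size), put the genes in a wide order. In NT + Sham, Cyba was highest at a mean of 9.16 ± 2.10 FPKM (SD, n = 6), followed by Ncf1 at 1.63 ± 0.26, Rac2 at 1.09 ± 0.22, Hvcn1 at 0.44 ± 0.11, Ncf4 at 0.43 ± 0.19, Cybb at 0.11 ± 0.06 and Nox4 at 0.014 ± 0.010 FPKM. The ranges of the 6 mice overlapped between Ncf1 and Rac2, between Hvcn1 and Ncf4 and between Ncf4 and Cybb, and did not overlap at the other steps. The membrane partner was thus present at a far higher level than the catalytic subunit that it holds, and both were above Nox4 in every library of the group. In NT + Stroke, Cyba stayed first at 38.3 ± 11.9 FPKM and Nox4 last at 0.032 ± 0.022 FPKM, with ranges apart from those of their neighbours. Between them, Rac2 (3.72 ± 0.91), Ncf1 (3.40 ± 0.72), Ncf4 (2.27 ± 0.68), Hvcn1 (1.54 ± 0.49) and Cybb (1.45 ± 0.63 FPKM) each overlapped the next. HT + Sham had the order Cyba, Ncf1, Rac2, Ncf4, Hvcn1, Cybb, Nox4, and HT + Stroke the same order as NT + Stroke, with Cyba and Nox4 again the only members without overlap with a neighbour in HT + Stroke.

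**Figure D1:**
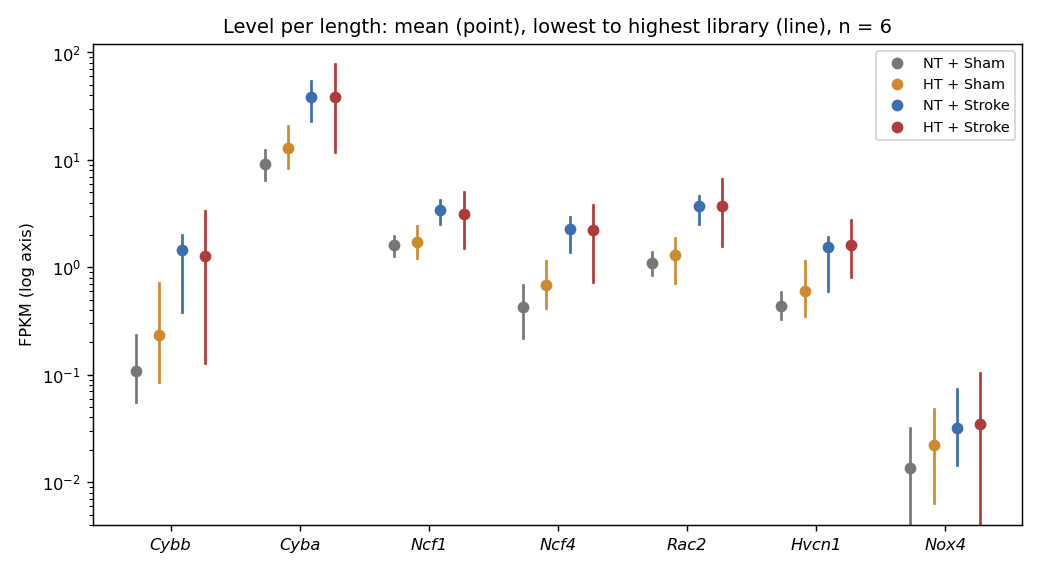
Level per length (FPKM, log axis) of the 7 genes in the 4 groups. Points are means and lines run from the lowest to the highest of 6 libraries (a line that reaches the foot of the axis includes a library at 0), and Cyba was highest and Nox4 lowest in each group.

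NT + Stroke was compared with NT + Sham to see how the oxidase genes stood at day 28 after an injury at day 7. The 6 genes of the phagocyte enzyme and its proton channel rose, by 2.01-fold (Ncf1) to 12.7-fold (Cybb). All 6 were called higher, against 14.4% of all genes tested, and the median of their log2 fold changes was 1.88, against -0.01 over all genes. The seventh, Nox4, had too few counts to enter the test. In 6 of 6 genes every NT + Stroke mouse was above every NT + Sham mouse in CPM, a separation seen in 7.78% of all genes tested.

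Of the membrane pair, Cybb was at 0.32 CPM in the lowest, 0.53 CPM in the median and 1.36 CPM in the highest NT + Sham mouse. In NT + Stroke the same values were 2.16, 9.06 and 11.4 CPM. The groups did not overlap, and NT + Stroke mouse 4 lay well below the other 5. The log2 fold change was 3.67 (SE 0.43, 95% CI 2.73 to 4.61, adjusted P = 4.1e-05 by edgeR), and sham counts behind it were 6 to 25 per library. Cyba went from 6.87, 9.91 and 13.04 CPM (lowest, median, highest) to 23.5, 40.7 and 55.4 CPM, again without overlap, with a log2 fold change of 2.01 (SE 0.23, adjusted P = 4.58e-05 by edgeR). The catalytic subunit thus rose by more than its partner, at 12.7-fold (95% CI 6.64 to 24.5) against 4.04-fold (2.86 to 5.70), and the intervals did not overlap, although the difference between the genes was not itself tested.

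Of the cytosolic subunits, Ncf1 had the smallest rise. Its lowest, median and highest values were 4.68, 5.93 and 7.18 CPM in NT + Sham and 9.09, 12.2 and 14.8 CPM in NT + Stroke, and the groups did not overlap. Its log2 fold change was 1.01 (SE 0.14, adjusted P = 3.67e-05 by edgeR). Gtf2ird2, which overlaps it, was at 20.8 ± 1.83 CPM in the sham mice and 21.4 ± 1.90 CPM in the stroke mice (SD, n = 6). Ncf4 went from 0.45, 0.75 and 1.39 CPM to 2.76, 5.08 and 5.78 CPM, with a log2 fold change of 2.34 (SE 0.27, adjusted P = 7.79e-06 by edgeR). Its NT + Stroke mice fell into 4 at 4.99 to 5.78 CPM and 2, mice 4 and 5, at 2.76 and 2.79 CPM, all above the sham range.

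Rac2, the GTPase, had the smallest adjusted P of the members. It was at 2.67, 3.26 and 4.30 CPM (lowest, median, highest) in NT + Sham and at 7.69, 12.02 and 13.9 CPM in NT + Stroke, with no overlap. Its log2 fold change was 1.72 (SE 0.17, adjusted P = 1.78e-06 by edgeR). Hvcn1, the proton channel, went from 1.18, 1.45 and 2.08 CPM to 2.08, 5.82 and 6.52 CPM, with a log2 fold change of 1.75 (SE 0.25, adjusted P = 4.51e-05 by edgeR). Its groups met at 2.08 CPM, where NT + Stroke mouse 4 stood barely above the highest sham mouse, while the other 5 were at 5.23 CPM or more. Tctn1, which overlaps Hvcn1, was at 21.4 ± 2.32 CPM in the sham mice and 28.2 ± 4.43 CPM in the stroke mice (SD, n = 6), and the share of its reads in the count of Hvcn1 was not tested.

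Nox4 had 0 to 5 counts per library in NT + Sham (13 in all) and 3 to 12 in NT + Stroke (33 in all). In CPM this was 0.00, 0.11 and 0.27 (lowest, median, highest) against 0.12, 0.18 and 0.60, and the groups overlapped. Fitted together with all genes of at least 1 count, its log2 fold change was 1.15 (95% CI -0.21 to 2.51, adjusted P = 0.282 by edgeR). A change of Nox4 was therefore not detectable at this depth, and the interval includes the log2 fold change of Cyba.

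**Figure D2:**
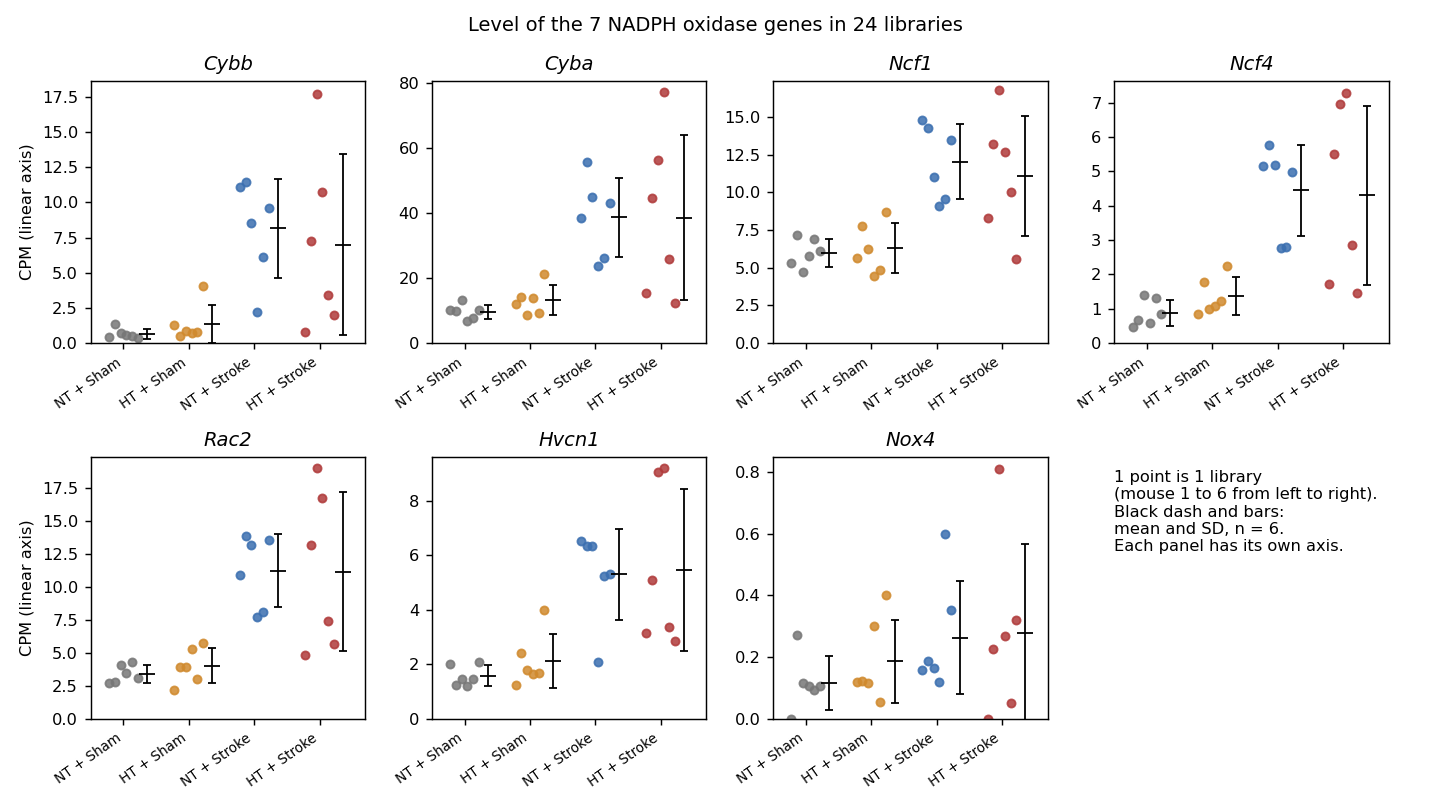
Level (CPM, linear axis from 0, its own scale in each panel) of the 7 genes in every library, 6 per group, with mean and SD beside the points (bars that pass 0 end there). NT + Stroke lies above NT + Sham in 6 panels, HT + Stroke spreads from sham values to the highest values of the series, and Nox4 stays under 1 CPM.

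The start of a gene may be read beside such a joint rise, so the 250 bases before the start were searched for 3 motifs on both strands, together with the 50 bases after it. These were GAGGAA, a form of the site bound by PU.1, the interferon regulatory factor (IRF) repeat, which is GAAA followed by any 2 bases and GAAA again, and CCAAT. Other forms of the PU.1 site were not searched for. RefSeq sequences (GRCm38.p6) were available for 4 of the 7 genes, Cybb, Cyba, Ncf1 and Nox4, and the 3 that rose are shown 5′ to 3′ on the strand of the gene, with bases of a match on either strand in capitals. The RefSeq start of Cybb lies within the longer gene model given above. The windows are chrX:9469325-9469574 (minus strand) for Cybb, chr8:122432941-122433190 (minus strand) for Cyba and chr5:134229626-134229875 (minus strand) for Ncf1.
Cybb: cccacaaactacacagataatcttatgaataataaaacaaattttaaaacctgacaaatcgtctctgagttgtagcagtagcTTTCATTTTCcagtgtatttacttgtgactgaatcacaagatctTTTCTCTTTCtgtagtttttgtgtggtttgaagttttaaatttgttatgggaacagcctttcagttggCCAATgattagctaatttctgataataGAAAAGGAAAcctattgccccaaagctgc
Cyba: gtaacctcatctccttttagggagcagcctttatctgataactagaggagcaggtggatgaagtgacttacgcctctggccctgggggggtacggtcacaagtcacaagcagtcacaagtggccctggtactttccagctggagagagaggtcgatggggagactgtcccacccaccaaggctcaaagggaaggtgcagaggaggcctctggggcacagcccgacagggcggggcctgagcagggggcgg
Ncf1: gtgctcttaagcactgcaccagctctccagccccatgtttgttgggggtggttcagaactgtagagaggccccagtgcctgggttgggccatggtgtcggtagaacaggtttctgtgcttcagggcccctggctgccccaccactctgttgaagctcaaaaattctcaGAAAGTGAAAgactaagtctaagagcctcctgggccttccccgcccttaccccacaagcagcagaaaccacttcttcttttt
Cybb held the IRF repeat at 3 places, whose first bases are 168, 124 and 29 bases before the start (the first 2 on the opposite strand), CCAAT at 56 bases before the start, and GAGGAA on the opposite strand from base 10 after it, outside the printed run. Ncf1 held 1 match, the IRF repeat from 82 bases before the start. None of the 3 motifs was found in the windows of Cyba and Nox4. Of 32851 promoters of the same length, 28.3% held GAGGAA, 3.44% the IRF repeat and 37.4% CCAAT. A match describes letters, not binding, and no motif was shared by the 3 genes that rose.

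HT + Stroke was compared with HT + Sham to give the same contrast under angiotensin II. The same 6 genes were higher on average, by 1.78-fold (Ncf1) to 5.14-fold (Cybb), but none passed the adjusted threshold in edgeR, where 0.544% of all genes tested were called higher. All 6 had an unadjusted P under 0.05 and a higher mean, against 10.5% of all genes, and the median of their log2 fold changes was 1.52, against 0.00069 over all genes. The adjusted P-values were 0.0761 (Ncf4) to 0.155 (Cybb) by edgeR. DESeq2 called all 6 higher (3.71% of all genes with an adjusted P), as did edgeR with the 4 groups in one fit (4.76% of all genes), and limma on log2 FPKM called 0.

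The HT + Stroke libraries were the most spread of the 4 groups. Cybb was at 0.49, 0.78 and 4.06 CPM (lowest, median, highest) in HT + Sham and at 0.74, 5.34 and 17.8 CPM in HT + Stroke, with 3 of 6 HT + Stroke mice above all HT + Sham mice. The highest sham library was mouse 6 and the lowest stroke library mouse 1. Its log2 fold change was 2.36 (SE 0.77, 95% CI 0.66 to 4.07). Cyba was at 8.70, 12.98 and 21.2 CPM in HT + Sham and at 12.3, 35.2 and 76.9 CPM in HT + Stroke, with 4 of 6 mice above the sham range and a log2 fold change of 1.56 (SE 0.46). HT + Stroke mouse 4, at 76.9 CPM, had the highest Cyba of all 24 libraries.

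The other members had the same shape. Ncf1 was at 4.47, 5.92 and 8.71 CPM in HT + Sham and 5.55, 11.4 and 16.8 CPM in HT + Stroke (log2 fold change 0.84, SE 0.24). Ncf4 was at 0.83, 1.16 and 2.25 CPM against 1.47, 4.18 and 7.29 CPM, with a log2 fold change of 1.67 (SE 0.41). Rac2 was at 2.19, 3.92 and 5.71 CPM against 4.84, 10.3 and 19.0 CPM, with a log2 fold change of 1.49 (SE 0.36). In each of these 3 genes 4 of 6 HT + Stroke mice were above all HT + Sham mice, and mice 1 and 6 were the 2 lowest. Hvcn1 was at 1.24, 1.73 and 4.01 CPM against 2.87, 4.23 and 9.22 CPM, with 3 of 6 mice above the sham range and a log2 fold change of 1.37 (SE 0.36).

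Nox4 was at 0.05, 0.12 and 0.40 CPM in HT + Sham and at 0.00, 0.25 and 0.81 CPM in HT + Stroke, with counts of 0 to 18 per library. The groups overlapped, and its log2 fold change in the fit of all genes was 0.59 (95% CI -0.79 to 1.98).

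HT + Sham mouse 6 and HT + Stroke mice 1 and 6 were singled out after their values were seen. Leaving them out moves the groups apart by construction, so the calls and P-values of that fit only describe. Without them, the 6 genes were all called higher by edgeR (6.81% of all genes). In each, 4 of 4 HT + Stroke mice were above 5 HT + Sham mice, a separation whose share over all genes was not computed. The log2 fold change was then 3.60 for Cybb (adjusted P = 0.000288), 2.14 for Cyba, 1.19 for Ncf1, 2.26 for Ncf4, 1.95 for Rac2 and 1.94 for Hvcn1. Leaving out single libraries, the number called by edgeR was 1 without HT + Sham mouse 6, beside 123 of 16858 genes called higher in that fit. It was 3 without HT + Stroke mouse 1 (451 of 16901 genes) and 4 without HT + Stroke mouse 6 (266 of 16916 genes), and 0 without any other.

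**Figure D3:**
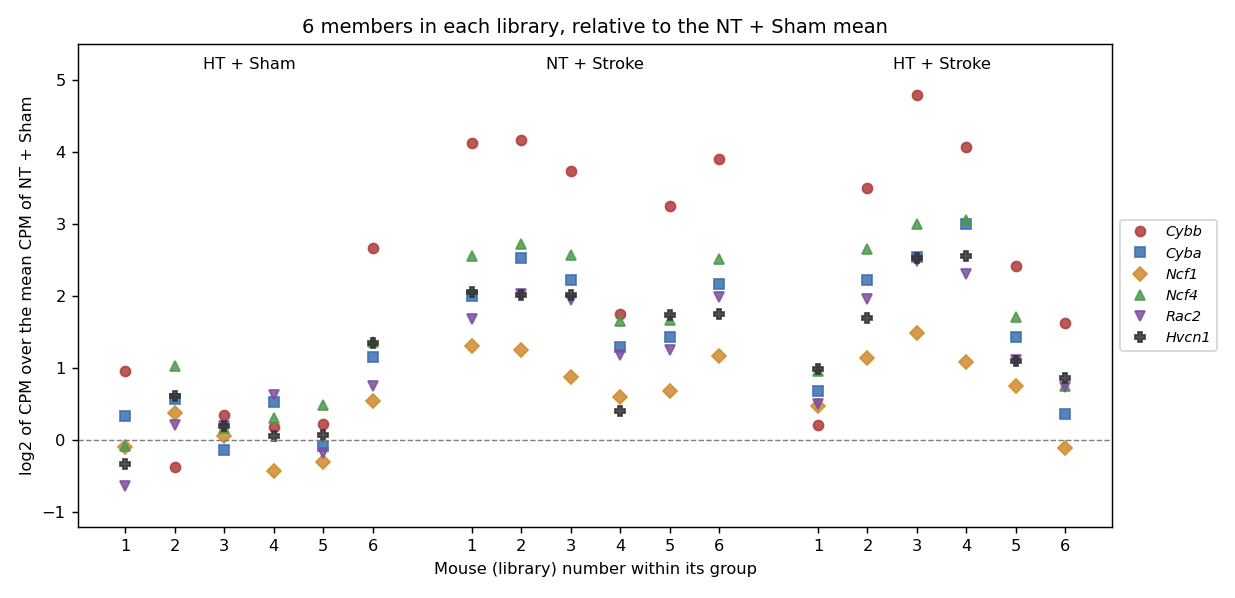
log2 of the CPM of 6 members over the mean of NT + Sham, in each library of the other 3 groups, with mouse number on the horizontal axis. The 6 members move together from library to library, HT + Stroke mice 1 and 6 lie near the sham libraries, and HT + Sham mouse 6 has Cybb at 4.06 CPM.

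Across the HT + Stroke libraries the 6 genes followed a common order. Mouse 3 had the highest value of 3 of the 6 and mouse 4 of the other 3. Mice 1 and 6 were the lowest pair in all 6 genes, and each was below all NT + Stroke mice in 5 of 6. Even so, mouse 1 was above every NT + Sham mouse in 5 of 6 genes and mouse 6 in 4 of 6. In HT + Sham, mouse 6 was highest in 6 of 6 genes and above all NT + Sham mice in each, and mouse 2 was above them in 4 of 6. In NT + Stroke, mouse 4 was lowest in 6 of 6 genes, and its Cd5l was also the lowest of that group at 2.72 CPM. The 6 genes do not overlap one another in the genome, although Ncf4 and Rac2 are both on chr15 and Ncf1 and Hvcn1 on chr5. They come from 1 RNA sample per library, so they are not independent measurements.

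HT + Sham was compared with NT + Sham, the comparison that bears on angiotensin II alone. No member was called, and 0% of the 16581 genes tested were called in either direction by edgeR. DESeq2 and limma also called 0 members. At an unadjusted P under 0.05, 2 of 6 members were higher (8.03% of all genes in either direction). These were Cybb, with a log2 fold change of 1.11 (95% CI 0.03 to 2.19, adjusted P = 0.610 by edgeR), and Cyba, with 0.47 (95% CI 0.02 to 0.92, adjusted P = 0.610 by edgeR). The other 4 had log2 fold changes of 0.07 (Ncf1), 0.24 (Rac2), 0.44 (Hvcn1) and 0.64 (Ncf4). The groups overlapped for every member.

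These values leaned on HT + Sham mouse 6, which had 4.06 CPM of Cybb, 21.2 CPM of Cyba and 4.01 CPM of Hvcn1 against at most 1.24, 14.2 and 2.40 CPM in the other 5. Without it the log2 fold change of Cybb was 0.34 (95% CI -0.44 to 1.12), that of Cyba 0.27 (95% CI -0.09 to 0.63), that of Hvcn1 0.15 and that of Ncf1 -0.05. The interval for Cybb then runs up to 2.17-fold, so a rise of that size could not be told from none. Nox4, at 13 counts in all of NT + Sham and 20 in all of HT + Sham, had a log2 fold change of 0.68 (95% CI -0.86 to 2.22) in the fit of all genes.

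HT + Stroke was compared with NT + Stroke, angiotensin II against saline in mice with stroke. No member was called, with 0% of 17008 genes called by edgeR, and 0 of 6 had an unadjusted P under 0.05 (7.23% of all genes). DESeq2 and limma also called 0 members. For Cybb the HT + Stroke mean was 6.99 ± 6.44 CPM, against 8.15 ± 3.52 CPM in the NT mice, and for Cyba the means were 38.5 ± 25.3 and 38.5 ± 12.1 CPM (SD, n = 6). The log2 fold changes lay between -0.21 (Cybb) and 0.05 (Hvcn1). The intervals were wide, from 0.32-fold to 2.33-fold for Cybb and from 0.51-fold to 1.96-fold for Cyba, so levels that differed by up to that much would not have been detected. Without HT + Stroke mice 1 and 6 all 6 were higher in HT + Stroke on average, with log2 fold changes of 0.13 (Ncf1) to 0.40 (Cyba) and adjusted P-values of 0.854 to 0.909 by edgeR. Nox4 was at 0.26 ± 0.18 CPM without and 0.28 ± 0.29 CPM with angiotensin II (SD, n = 6), with a log2 fold change of 0.10 (95% CI -1.197 to 1.40) in the fit of all genes.

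The interaction, which asks whether the fold of stroke differed between HT and NT mice, was called for 0 of 6 members by edgeR, with 0% of 17608 genes called. DESeq2 and limma also called 0, and 0 of 6 had an unadjusted P under 0.05 (10.4% of all genes). Its log2 values were negative for all 6, from -1.32 (Cybb, 95% CI -3.28 to 0.65, adjusted P = 0.635 by edgeR) to -0.18 (Ncf1, 95% CI -0.77 to 0.41). Without the 3 libraries the values lay around 0, from -0.08 (Ncf4) to 0.23 (Rac2).

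HT + Stroke, with both factors, was also compared with NT + Sham, the group with saline and sham surgery. All 6 tested members were called higher (8.38% of all genes), with log2 fold changes of 3.48 for Cybb (adjusted P = 0.0131), 2.31 for Ncf4, 2.02 for Cyba, 1.81 for Hvcn1, 1.73 for Rac2 and 0.91 for Ncf1, and adjusted P-values of 0.00836 to 0.0156 by edgeR. Every HT + Stroke mouse was above every NT + Sham mouse for Ncf4, Rac2 and Hvcn1, and 5 of 6 were for Cybb, Cyba and Ncf1. How many of all genes separated in this way was not computed for these groups. This comparison shares its sham libraries with NT + Stroke vs NT + Sham, where the corresponding log2 values were 3.67, 2.34, 2.01, 1.75, 1.72 and 1.01. Without HT + Stroke mice 1 and 6 the log2 values were 3.96 for Cybb (adjusted P = 9.68e-05 by edgeR), 2.70 for Ncf4, 2.42 for Cyba, 2.10 for Hvcn1, 2.06 for Rac2 and 1.15 for Ncf1, and all 6 were called (12.2% of all genes).

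**Figure D4:**
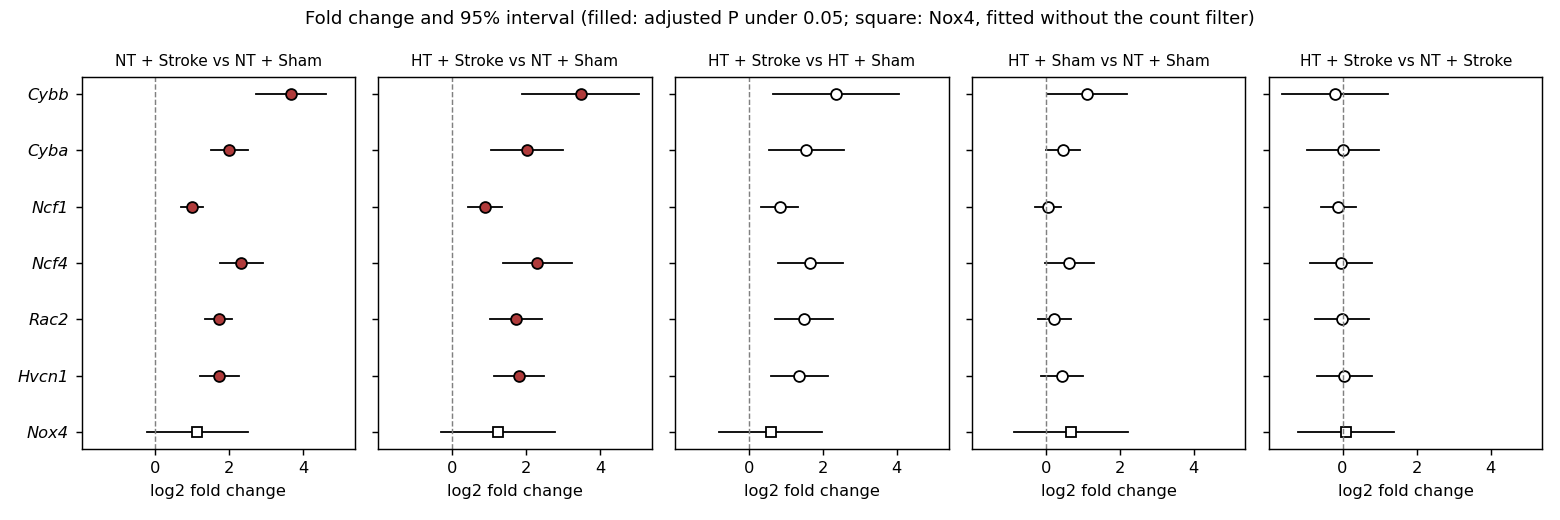
log2 fold changes with 95% intervals of the 7 genes in 5 comparisons of 2 groups (filled, adjusted P under 0.05 in edgeR). The 6 members other than Nox4 are filled in both comparisons with NT + Sham as the reference for a stroke group, and in the other 3 no member is filled.

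The members are genes of phagocytes, so their levels were set beside those of cell type markers. In NT + Stroke, 10 of 12 microglial markers were called higher, with a median log2 fold change of 0.63, and they summed to 436 to 542 CPM against 293 to 345 CPM in NT + Sham. Of 9 markers of border macrophages and monocytes 7 were higher, with a median of 1.07 and sums of 22.6 to 38.5 against 7.94 to 14.2 CPM. Of 12 neutrophil markers 3 could be tested and all 3 were higher (S100a8, S100a9 and Csf3r), with sums of 20.1 to 79.6 against 8.21 to 10.8 CPM. Csf3r made up most of the sum in NT + Sham, with 835 counts in all, against 67 for S100a8 and 76 for S100a9. In NT + Stroke the counts of these 3 genes were 2561, 563 and 633. Ly6g, the defining surface marker of mouse neutrophils, had 2 counts in all of NT + Sham and 4 in all of NT + Stroke. Other neutrophil markers had too few counts for the test but more of them after stroke, with 28 counts in all of NT + Sham and 400 in all of NT + Stroke for Ngp, 9 and 107 for Camp, 25 and 110 for Ltf, 9 and 67 for Mpo, 4 and 66 for Retnlg, and 1 and 54 for Mmp8. Single NT + Stroke libraries held much of these counts, with 299 for Ngp, 71 for Camp, 50 for Mpo and 46 for Retnlg. Mouse 5 of NT + Stroke had the highest neutrophil sum, 79.6 CPM against 45.8 CPM in the next, mouse 1. Its red blood cell markers also summed highest in the group, to 181 CPM against at most 101 CPM. B cell markers summed to 1.001 to 5.06 against 0.64 to 1.31 CPM. Fibroblast markers summed to 172 to 717 against 39.4 to 52.4 CPM, and olfactory bulb markers, of which 4 of 7 were higher, to 127 to 484 against 70.5 to 175 CPM. Astrocyte markers, of which 5 of 6 were higher, summed to 2467 to 3142 against 1911 to 2257 CPM. Of 8 cortical neuron markers 5 were lower and 1 higher in NT + Stroke, with a median log2 fold change of -0.36, and the sums of 5685 to 6600 CPM lay below all those of NT + Sham (7351 to 7914 CPM). In such bulk RNA, more cells of a type and more RNA per cell cannot be told apart, and the part of each cell type in the rise of the oxidase genes was not tested.

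In HT + Stroke the microglial markers summed to 320 to 646 CPM against 328 to 415 CPM in HT + Sham, and 0 of 12 were called by edgeR. The neutrophil markers summed to 7.68 to 59.5 against 7.18 to 18.8 CPM and the border macrophage and monocyte markers to 10.3 to 35.3 against 10.2 to 24.6 CPM. Olfactory bulb markers summed to 37.5 to 398 CPM in HT + Stroke and 125 to 608 CPM in HT + Sham. Oligodendrocyte markers were the list with calls here, 3 of 5 higher by edgeR, and their sums of 4700 to 5250 CPM lay above all those of HT + Sham (3453 to 4480 CPM). Striatal markers summed to 883 to 2766 against 354 to 1106 CPM, and fibroblast markers to 68.5 to 835 against 44.1 to 191 CPM. Without the 3 libraries 6 of 12 microglial, 4 of 7 border macrophage and monocyte, 3 of 3 neutrophil, 5 of 5 fibroblast, 3 of 6 astrocyte and 3 of 5 oligodendrocyte markers were higher by edgeR, and the microglial sums were 462 to 646 against 328 to 364 CPM. The part of these cell types and regions in the members' values in HT mice was not tested.

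Relative to the mean log2 level of the 12 microglial markers, 6 members were still higher after stroke in NT mice. The microglial mean itself was 0.55 log2 units higher in NT + Stroke than in NT + Sham. Over and above it, Cybb was higher by 2.27 log2 units (P = 0.00433), Cyba by 1.37, Ncf4 by 1.29 and Rac2 by 1.01 (each P = 0.00216, the smallest that rearranging 6 against 6 libraries can give), Hvcn1 by 0.88 (P = 0.00866) and Ncf1 by 0.39 (P = 0.0195), in exact two-sided permutation tests. Nox4 went the other way by 0.26 log2 units (P = 0.175, exact permutation test), with counts too low for this scale. There were 14 such tests and these P-values are unadjusted. The members thus did not keep a constant ratio to the microglial list. The same subtraction was not run over all genes, so no share over all genes can be set beside these counts. Whether such a rise is particular to the members was not tested. Against the border macrophage and monocyte list in place of the microglial one, 4 members rather than 6 were higher at P under 0.05 in NT + Stroke.

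In HT mice the same differences over the microglial mean, which was itself 0.33 log2 units higher, were 1.38 for Cybb (P = 0.0346), 0.95 for Cyba (P = 0.0303), 0.92 for Rac2 (P = 0.00433), 0.87 for Ncf4 (P = 0.0195), 0.78 for Hvcn1 (P = 0.0152) and 0.40 for Ncf1 (P = 0.0563), by the exact permutation test. Of the 7 members, 5 were thus higher at P under 0.05, again without a share over all genes. That number was 6 without the 3 libraries named above, and it fell to 3 without HT + Sham mouse 3 and to 3 without HT + Sham mouse 5.

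The genes that work with the oxidase were described from 6 lists with 53 genes, 52 of them in the tables. In NT + Stroke vs NT + Sham 45 could be tested, of which 22 were higher and 2 lower, beside 14.4% higher and 11.5% lower over all genes, and their median log2 fold change was 0.23. In HT + Stroke vs HT + Sham 1 of 42 was higher by edgeR (0.544% of all genes), and 9 were by DESeq2 (3.71% of all genes). Without the 3 libraries 15 were higher by edgeR (6.81% of all genes). In HT + Sham vs NT + Sham and in HT + Stroke vs NT + Stroke the number was 0 of 43 and 0 of 44.

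Among organizers, activators and maturation factors, 4 of 6 tested were higher in NT + Stroke. Sh3pxd2b, a scaffold related to the organizers, had a log2 fold change of 0.84, and Cybc1, a chaperone needed to make the membrane pair, one of 0.28. Sh3pxd2a, another scaffold, had 0.23. Of the other oxidase enzymes Nox1, Nox3, Duox1 and Duox2, 0 of 4 had enough counts to be tested, and none had more than 23 counts in a library.

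Among small GTPases and their regulators, 5 of 12 were higher and 1 lower. The exchange factors Vav1 (log2 fold change 1.43), Dock2 (1.43) and Vav2 (0.52), which load Rac with GTP, and Arhgdib (1.17), which holds small GTPases of blood cells in the cytosol, were higher. Rac1, the Rac of most cells, had means of 168 ± 10.9 (NT + Stroke) and 168 ± 19.1 CPM (NT + Sham; SD, n = 6), with a log2 fold change of 0.0056 (SE 0.07, adjusted P = 0.969 by edgeR). The rise of Rac2 had no counterpart in Rac1. Among upstream kinases, Syk (1.41), Pik3cg (0.93) and Prkcd (1.31), a kinase that phosphorylates p47phox, were higher, and Prkcb, abundant in neurons, was lower (log2 fold change -0.34). Prkcd was also the 1 partner called in HT + Stroke vs HT + Sham (log2 fold change 1.33, SE 0.25, adjusted P = 0.0334 by edgeR), and without the 3 libraries its value was 1.53 (SE 0.26, adjusted P = 0.00367 by edgeR).

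The angiotensin receptors were near the limit of detection. Agtr1a, the main receptor of angiotensin II, had 3 to 20 counts per library over the series, with 0.65 ± 0.27 CPM in NT sham mice and 0.51 ± 0.25 CPM in NT stroke mice (SD, n = 6, adjusted P = 0.554 by edgeR). Agtr2 had 2 to 17 counts per library, with 0.40 ± 0.20 against 0.62 ± 0.22 CPM (adjusted P = 0.295 by edgeR). In HT + Sham vs NT + Sham Agtr1a had a log2 fold change of -0.38 (SE 0.32, adjusted P = 0.844 by edgeR). A difference between the groups was not detectable at this depth.

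Of 18 antioxidant enzymes and related genes, 10 were higher and 0 lower in NT + Stroke. Hmox1, which breaks down heme, went from 5.70 ± 0.50 to 18.6 ± 6.04 CPM (SD, n = 6; log2 fold change 1.70, SE 0.19, adjusted P = 9.99e-06 by edgeR). Nqo1, a quinone reductase, had a log2 fold change of 0.94, Slc7a11, the cystine transporter, 0.59, and Prdx6, a peroxiredoxin, 0.55. Sod1 and Sod2, which remove superoxide in cytosol and mitochondria, had values of -0.08 (adjusted P = 0.599) and -0.11 (adjusted P = 0.108) by edgeR. In HT + Stroke vs HT + Sham 0 of the 18 were called by edgeR, with Hmox1 at a log2 fold change of 1.03 (SE 0.33, adjusted P = 0.140). Without the 3 libraries 6 of the 18 were higher by edgeR, with Hmox1 at 1.58 (SE 0.18, adjusted P = 0.000118).

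As a description of which genes had a pattern like that of a member, log2 levels were correlated over the 12 stroke libraries with all genes of a mean of at least 1 CPM. For Cybb the 3 highest of 15480 genes were Atf3 (Pearson r = 0.99, Spearman coefficient 0.99), a transcription factor of stressed cells, Slc11a1 (r = 0.99, Spearman coefficient 0.97), a metal transporter of phagosomes, and Atp6v0d2 (r = 0.98, Spearman coefficient 0.99), a subunit of the vacuolar proton pump. Without HT + Stroke mice 1 and 6, r was 0.97, 0.97 and 0.98. In the 12 sham libraries it was 0.79, 0.72 and 0.85. For Nox4 the 3 highest of 15481 were Akap1, Ccdc34 and Dbf4 (r = 0.91, 0.90 and 0.89), and in the sham libraries r was -0.47, -0.11 and -0.22, so the pattern of Nox4, with at most 18 counts, did not recur there. The libraries in each set differ in section and injury, which all genes share, and the 3 genes are the top of a long ranking.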

How the data were processed

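Libraries were made from poly(A) RNA. The counts as deposited are whole reads or read pairs per gene, made per the labels' processing notes with featureCounts 1.5.0-p3 and not normalized, and the authors computed the deposited FPKM values from gene length and library size. The notes also list DESeq2 1.20.0. The methods name an Ensembl mouse genome. The aligner, the genome build and the strand setting are not given in the sources used here, and 97.65% of the 33960 genes shared with GENCODE M21 had the same position as on GRCm38. The 48 columns of normalized counts, and the group means, fold changes and P-values of the authors' own tests, were not used. The 4 tables were joined by gene identifier, and 0 of 48 comparisons of a library between tables differed.

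Each pair of groups was fitted over all genes with edgeR 4.0.16 in R 4.3.3 (filterByExpr with minimum count 10 and minimum total count 15, TMM scaling, robust quasi-likelihood test), as was the interaction over the 4 groups, with Benjamini-Hochberg adjustment over the genes tested. Nox4 did not pass the filter, and its values come from a fit without it. Levels relative to markers are log2(CPM + 0.5) minus the mean over the marker list, tested by exact permutation over libraries with numpy 2.4.6 and scipy 1.17.1. The correction over these tests that had been planned is not given, because it would have covered the chosen genes alone. Alternatives were DESeq2 1.42.0, no scaling and upper-quartile scaling, a fit of every gene with a count, a stricter filter (10 counts in each of the libraries), limma 3.58.1 on the logarithm of FPKM with 1 or 0.1 added, a single fit of the 4 groups, and leaving out single libraries. Leaving out 3 libraries together was chosen after seeing the data. The fits were tested on simulated data.

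All 7 members are named in each comparison. The partner genes named are up to 4 per list with the smallest P in NT + Stroke vs NT + Sham, with Rac1, Agtr1a, Agtr2 and Hmox1 always named. The values of 1 partner gene, which counts toward its list, are not reported here. Sod1, Sod2, the other oxidase enzymes and the single partner called in HT mice were added after their values were seen. The members, partner lists, motifs and marker lists were chosen with earlier results of these data known. The genes with few counts are limited by depth, as their intervals show.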

Additional observations from a re-analysis of the deposited data

Results flagged for a closer look

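In 3 of 28 sets of 6 libraries (7 genes in 4 groups) the highest or lowest library lay far from the rest by Dixon's test, which chance alone flags in about 1 of 20 sets. Cybb was at 1.36 CPM in NT + Sham mouse 2, with the next library at 0.69 CPM. Cybb was at 4.06 CPM in HT + Sham mouse 6, with the next at 1.24 CPM, in the library whose injury genes also went against its label. Hvcn1 was at 2.08 CPM in NT + Stroke mouse 4, with the next at 5.23 CPM, and the same library had the lowest value of 6 of 6 members in its group. The cause of these values was not tested.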

How the results depend on the processing

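No paired analysis was possible because the labels give no replicate numbers that pair the mice. In NT + Stroke vs NT + Sham 119 of 119 alternative values of the members' log2 fold changes kept their direction and side of the threshold. In HT + Stroke vs NT + Sham 124 of 125 did, with Cybb not called by limma on log2(FPKM + 1) (adjusted P = 0.0517), a scale that understates genes of low level; 4 members were called with the stricter filter on counts, where Cybb and Ncf4 had too few to be tested. The calls in HT + Stroke vs HT + Sham depended on the method and the libraries: 6 members were called by DESeq2, 6 with the 4 groups in one fit and 6 without HT + Sham mouse 6 and HT + Stroke mice 1 and 6, and between 0 and 4 when 1 library was left out. Partner genes called there were 9 by DESeq2, 15 without the 3 libraries, and 0 both without scaling and by limma on log2(FPKM + 1). Members higher relative to microglial markers in HT mice were between 3 and 6 when 1 library was left out.

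Directions turned only in values that were not called. In HT + Sham vs NT + Sham Ncf1 was -0.0515 without the 3 libraries, and between -0.0515 and 0.15 with 1 library left out. In HT + Stroke vs NT + Stroke without the 3 libraries the log2 values were 0.27 for Cybb, 0.13 for Ncf1, 0.35 for Ncf4 and 0.33 for Rac2. Cyba turned to -0.0037 by DESeq2, -0.0383 without scaling, -0.00040 with all genes, -0.00119 with the stricter filter on counts, and -0.22 and -0.23 by limma on log2(FPKM + 1) and log2(FPKM + 0.1). Hvcn1 turned to -0.0057 and -0.0309 in those limma fits, and Rac2 to 0.0010 with upper-quartile scaling. With 1 library left out the ranges there were -0.74 to 0.0222 for Cybb, -0.31 to 0.19 for Cyba, -0.27 to 0.0227 for Ncf1, -0.25 to 0.14 for Ncf4, -0.22 to 0.14 for Rac2 and -0.16 to 0.18 for Hvcn1. The interaction turned without the 3 libraries to 0.13 for Cyba, 0.18 for Ncf1, 0.23 for Rac2 and 0.19 for Hvcn1. The cause of these turns was not tested, and the few counts of Nox4 limit what can be said of it.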
